A study of Mus musculus with 6 samples.

Results

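*Pdgfra*, *Pdgfrb*, *Twist1*, *Twist2*, *Prrx1*, *Dcn*, *Lum*, *Acta2*, *Tagln* and *Cspg4* are genes of the mesenchyme below the aorta and of the mural cells, the pericytes and smooth muscle cells that wrap vessels. These 10 genes were chosen by name, and all 10 had rows among the 24062 genes of the count tables. They were followed in 6 RNA-seq libraries of cells sorted from the aorta-gonad-mesonephros (AGM) region of E10.5 C57BL/6JOlaHsd mouse embryos, which carried 1 *Gata2Venus* (*G2V*) allele, a Venus reporter inserted at *Gata2*. Both fractions were CD31+ckit+ and differed in Venus fluorescence, which was intermediate in CD31+ckit+Vmed cells (3 libraries) and high in CD31+ckit+Vhigh cells (3 libraries). CD31 marks endothelial and emerging blood cells, and ckit marks hematopoietic stem and progenitor cells. The labels call both fractions hematopoietic progenitor/stem cells. The number of embryos behind a library is not given in the sources used here, and *Venus* itself has no row in the tables. Dead cells were excluded by a dye. The labels name the fractions G2Vi (Vmed) and G2Vh (Vhigh), and libraries with the same replicate number are called a pair.

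The aorta of the midgestation embryo is an endothelial tube that acquires a coat of mesenchyme on its outer side. Endothelial cells secrete platelet-derived growth factor B, which recruits mural cells through the receptor PDGFRB. PDGFRA is the receptor of broader mesenchyme. TWIST1, TWIST2 and PRRX1 are transcription factors of mesenchymal cells. Decorin and lumican, encoded by *Dcn* and *Lum*, are small leucine-rich proteoglycans that bind collagen fibrils. Smooth muscle alpha-actin (*Acta2*) and transgelin (*Tagln*) belong to the contractile apparatus, and the proteoglycan NG2 (*Cspg4*) lies on the surface of pericytes.

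*Twist1* and *Twist2* are paralogs, so it matters whether 50-base reads can tell them apart. The most alike 50 bases of the 2 coding sequences are shown here from the GENCODE transcripts of GRCm38, with the 3 bases that differ in capitals. They lie in coding exons on the plus strand, at chr12:33958353-33958402 for *Twist1* and chr1:91801864-91801913 for *Twist2*.
Twist1: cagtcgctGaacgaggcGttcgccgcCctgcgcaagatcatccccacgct
Twist2: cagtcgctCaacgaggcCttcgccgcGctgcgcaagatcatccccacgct
No 50-base stretch of *Twist1* occurred in an annotated transcript of another gene. Of the *Twist2* stretches, 45.7% also lay in an antisense transcript, Gm29100, which has no row in the tables. Reads of *Twist2* and of this antisense transcript cannot be told apart where the library protocol does not keep strand, and the strand setting of the counting is not given in the sources used here. Reads could likewise not be told apart for the 58.3% of *Tagln* stretches that also lay in antisense Gm48529 or in *Pcsk7*, on the opposite strand. Of these genes, *Pcsk7* has a row in the tables and Gm48529 has none. Of the *Pdgfra* stretches, 4.93% occurred in transcripts of other genes, most of them antisense Gm42802. At most 0.326% was shared for each of the other 7 genes, including *Acta2*, whose relatives are the other actin genes.

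*Acta2* is a classic target of serum response factor, which binds the CArG box, CC and GG flanking 6 letters of A or T. RefSeq promoter windows of GRCm38.p6, from 250 bases before to 50 after a gene's start, were at hand for *Twist1*, *Twist2*, *Prrx1*, *Pdgfra*, *Cspg4* and *Acta2*, and not for the other 4 genes. None of these 6 windows held an exact CArG box, which is its own reverse complement in form and was present in 1.63% of 32851 windows. With 1 of the 6 middle letters allowed to be C or G, *Acta2* held 2 boxes, as did 0.822% of windows (2 or more), and 9.98% of windows held at least 1. The other 5 windows held 0. The *Acta2* boxes are in capitals, read along the minus strand, at chr19:34255438-34255467 and chr19:34255388-34255417. They begin 84 and 34 bases before the RefSeq start and lie inside the GENCODE bounds of the gene, which reach further upstream.
Acta2, upstream box: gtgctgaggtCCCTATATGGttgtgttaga
Acta2, downstream box: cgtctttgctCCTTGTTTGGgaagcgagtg
A match describes the letters of the window and does not show that a factor was bound.

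Total gene counts lay between 8296831 and 12035206 per library, so that 3 counts, taken as the smallest number to be shown, correspond to 0.249 to 0.362 CPM (a gene's count scaled by the total over all genes in its library). Where a count of 0 is said below to allow up to such a value, this limit covers counting error only. The reads carry no molecular identifiers, so error from amplification is not covered. Between 10427 and 18460 genes had a count. Vhigh replicate 1 had the fewest, and Vhigh replicate 2 the most. Of the sorting markers, *Kit* had 59.1 to 208 CPM in Vmed and 255 to 521 CPM in Vhigh, and *Pecam1* (CD31) 118 to 569 CPM in Vmed and 160.1 to 436 CPM in Vhigh. *Gata2* had 29.4 to 68.3 CPM in Vmed and 39.2 to 142 CPM in Vhigh.

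In all 6 libraries, transcripts of the mesenchyme and mural cell genes were present, and their summed level was higher in each Vmed library than in any Vhigh library. The sum of the 10 genes was 1621, 2465 and 1179 CPM in Vmed replicates 1, 2 and 3 and 466, 366 and 115 CPM in Vhigh replicates 1, 2 and 3. The mean was 1755 ± 653 CPM (SD, n = 3) in Vmed and 316 ± 181 CPM (SD, n = 3) in Vhigh, a ratio of 5.56. The ratio describes these libraries and was not tested, as the genes were chosen with earlier results in view. In bulk libraries, fewer cells of a type and less RNA per cell cannot be told apart.

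**Figure D1:**
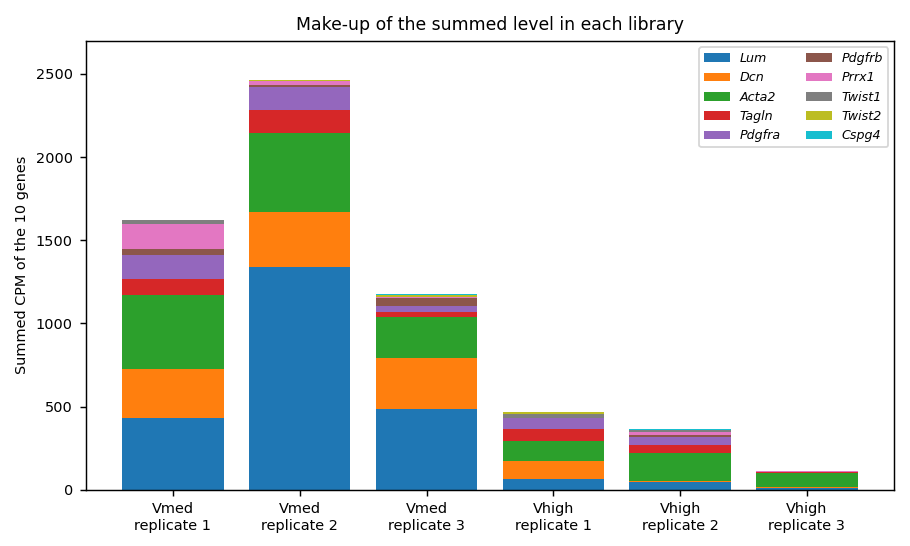
Stacked bars give the CPM of each of the 10 genes in each library (y axis, summed CPM; x axis, fraction and replicate number). The Vmed bars reach 1179 to 2465 CPM and the Vhigh bars 115 to 466 CPM, and *Lum*, *Dcn* and *Acta2* fill most of each Vmed bar.

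The make-up of the sum also differed between libraries. *Lum* gave 26.4%, 54.4% and 41.3% of it in Vmed replicates 1, 2 and 3, and 13.8%, 12.6% and 10.1% in the Vhigh replicates. *Acta2* gave 19.2% to 27.7% in Vmed, and 25.6%, 46.1% and 75.1% in Vhigh replicates 1, 2 and 3. *Acta2* was therefore the largest contributor in each Vhigh library, while *Lum* led in Vmed replicates 2 and 3 and *Acta2*, by a small margin, in Vmed replicate 1.

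The fractions were compared for each gene by the quasi-likelihood (QL) test of edgeR over all 12688 genes that passed a filter on low counts. All 10 genes passed this filter. Below, a p of edgeR is from this test unless another is named. None of the 10 had a Benjamini-Hochberg adjusted p under 0.05, where 0% of all tested genes (0 of 12688) did. At an unadjusted p under 0.05 the test gave 3 of the 10 genes, *Lum*, *Acta2* and *Dcn*, all lower in Vhigh, against 2.04% of all tested genes, 1.17% lower and 0.867% higher. These same 3 genes were the ones whose Vhigh libraries all lay below all Vmed libraries, which held for 4.71% of all tested genes. The opposite order held for 0 of the 10 and for 4.15% of all tested genes. Fitted values were lower in Vhigh for 9 of the 10 genes, against 51.1% of all tested genes. The median log2 fold change (Vhigh over Vmed) was -1.57 over the 10 genes and -0.02 over all tested genes. CPM were lower in Vhigh in 3 of 3 pairs for 6 of the 10 genes, against 15.4% of all tested genes. The study describes its RNA-seq replicates as independent experiments, and p-values measure the spread between these libraries.

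**Figure D2:**
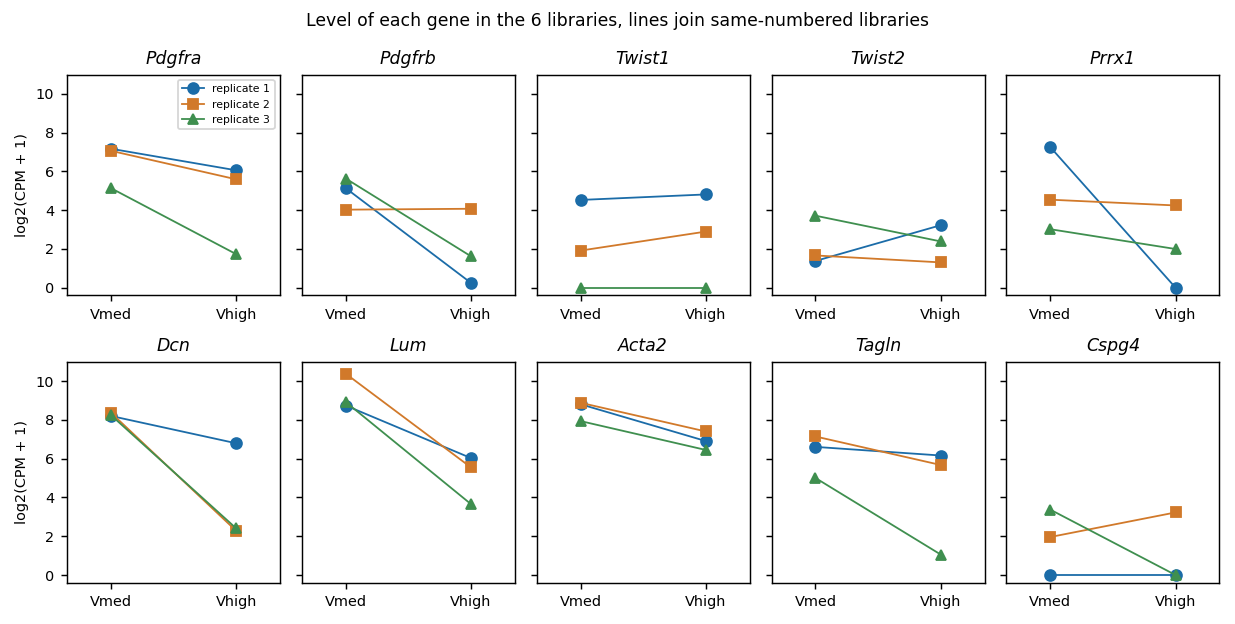
Each panel shows 1 gene, with the level in each library as log2(CPM + 1) on the y axis and the fraction on the x axis, and lines joining libraries of the same replicate number. *Lum*, *Dcn* and *Acta2* descend in each pair without overlap of the fractions, *Twist1* lies at 0 in both libraries of replicate 3, and *Prrx1* and *Pdgfrb* drop steeply in replicate 1 and are nearly level in replicate 2.

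Among the proteoglycans, *Lum* (chromosome 10 of GRCm38, 97565128 to 97572703, plus strand) had the larger fold difference in the unblocked test, and *Dcn* had it with the replicate block. The level of *Lum* was 428, 1341 and 487 CPM in Vmed replicates 1, 2 and 3 and 64.5, 45.9 and 11.6 CPM in Vhigh. Each Vmed library was above each Vhigh library, and Vmed replicate 2 stood well above the other Vmed libraries. The mean was 752 ± 511 CPM (SD, n = 3) in Vmed and 40.7 ± 26.8 CPM (SD, n = 3) in Vhigh, 18.5-fold apart. The log2 fold change was -4.20 (SE 0.67, edgeR unadjusted p = 0.00024, adjusted p = 0.66, where SE is the standard error). *Lum* stood at rank 4 of 12688 genes by this p. The adjusted p was 0.0014 in the likelihood ratio test of edgeR, which called 0.166% of all tested genes (0.0788% lower and 0.0867% higher in Vhigh). It was 4.05e-05 in the DESeq2 Wald test, which called 0.409% (0.248% lower and 0.16% higher). In each of these tests *Lum* was the only one of the 10 genes called. With the replicate number as a block the QL test gave -4.40 (SE 0.53, adjusted p = 0.57). An exact two-sided permutation of the 6 libraries, which did not keep the pairs, gave p = 0.1, the smallest that 3 against 3 allow.

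*Dcn* (chromosome 10, 97479609 to 97518143, plus strand) is the direct neighbour of *Lum*, 46984 bases away. It had 295, 332 and 305 CPM in Vmed replicates 1, 2 and 3, the tightest values of the 10 genes in this fraction. In Vhigh it had 110.3, 3.87 and 4.32 CPM, so that replicate 1 lay far above the other Vhigh libraries and below each Vmed library. The means were 310.4 ± 19.0 CPM (SD, n = 3) and 39.5 ± 61.3 CPM (SD, n = 3), with a log2 fold change of -2.88 (SE 1.1, edgeR unadjusted p = 0.034, adjusted p = 0.9998). The block moved it to -4.98 (SE 0.95, edgeR adjusted p = 0.95). Without Vhigh replicate 1 it was -6.33 and passed the threshold (edgeR adjusted p = 0.037), and *Dcn* was then the 1 gene called among all tested. Exact two-sided permutation of all 6 libraries gave p = 0.1.

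The proportion of the 2 proteoglycans was not constant. Per kilobase of exon, the level of *Lum* was 3.46, 9.65 and 3.81 times that of *Dcn* in Vmed replicates 1, 2 and 3, and 1.40, 28.3 and 6.42 times in Vhigh replicates 1, 2 and 3. By this measure *Lum* was the higher of the pair in all 6 libraries, and the ratios of the fractions overlapped. The order depends on the exon lengths used, 2448 bases for *Lum* and 5838 for *Dcn*. In CPM, *Dcn* was the higher in Vhigh replicate 1.

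Of the contractile genes, *Acta2* (chromosome 19, 34241090 to 34255590, minus strand) was the steadiest. It had 448, 473 and 245 CPM in Vmed replicates 1, 2 and 3 and 119, 169 and 86.6 CPM in Vhigh. The fractions did not overlap, and the log2 difference within pairs was -1.91, -1.49 and -1.50 in replicates 1, 2 and 3. With means of 389 ± 125 CPM and 125 ± 41.3 CPM (SD, n = 3 each), the fractions were 3.11-fold apart. The log2 fold change of *Acta2* was -1.69 (SE 0.47, edgeR unadjusted p = 0.0057, adjusted p = 0.9998, exact permutation p = 0.1). The block left it at -1.66 and lowered its SE to 0.24 (edgeR adjusted p = 0.57). The likelihood ratio test of edgeR, with the block, called *Acta2*, *Dcn* and *Lum* (adjusted p = 0.017, 0.021 and 3.3e-06) as lower in Vhigh, where it called 0.583% of all tested genes (0.378% lower and 0.205% higher).

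*Tagln* (chromosome 9, 45929619 to 45936058, minus strand) had 96.8, 141 and 31.2 CPM in Vmed replicates 1, 2 and 3 and 70.8, 50.2 and 1.08 CPM in Vhigh. Vhigh was lower in each pair, but the fractions overlapped, as Vmed replicate 3 was below Vhigh replicates 1 and 2. For *Tagln* the log2 fold change was -1.14 (SE 1.15, edgeR adjusted p = 0.9998), or -2.13 (SE 0.89) once blocked by replicate. It was -0.52 without Vhigh replicate 3 and -2.00 without Vhigh replicate 1, the ends of the range with single libraries left out. Per kilobase, the level of *Acta2* was 1.53 to 7.11 times that of *Tagln* in 5 of the libraries and 72.6 times in Vhigh replicate 3, where *Tagln* was at its lowest.

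*Pdgfra* (chromosome 5, 75152292 to 75198215, plus strand) encodes the receptor found on most embryonic mesenchyme. Its level was 143, 133 and 34.3 CPM in Vmed replicates 1, 2 and 3 and 65.7, 47.3 and 2.33 CPM in Vhigh. As with *Tagln*, Vhigh was lower in each pair and Vmed replicate 3 lay below Vhigh replicates 1 and 2. For *Pdgfra* the log2 fold change was -1.44 (SE 1.04, edgeR adjusted p = 0.9998) or -2.14 (SE 0.69, edgeR adjusted p = 0.99) once blocked by replicate. Leaving out Vhigh replicate 3 gave -0.85 and leaving out Vhigh replicate 1 gave -2.26, and other single libraries gave values between these. Over the 6 libraries, log2 CPM of *Pdgfra* and *Tagln* had a Pearson r of 0.99, the highest of the 45 pairs among the 10 genes. *Pdgfra* lies beside *Kit* on chromosome 5, 376700 bases away, and *Kit* was higher in each Vhigh library than in any Vmed library.

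*Pdgfrb* (chromosome 18, 61045150 to 61085061, plus strand) encodes the receptor that marks pericytes. It had 34.2, 15.3 and 48.7 CPM in Vmed replicates 1, 2 and 3 and 0.188, 15.8 and 2.08 CPM in Vhigh. The value of Vhigh replicate 1 rests on 2 counts, fewer than the 3 taken as the smallest to be shown, and in replicate 2 the fractions had nearly the same level. Its log2 fold change was -2.63 (SE 1.5, edgeR adjusted p = 0.9998). Blocked by replicate it was -4.17 (SE 1.57, edgeR adjusted p = 0.99). With single libraries left out it lay between -4.90, without Vhigh replicate 2, and -2.07, without Vhigh replicate 1.

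The receptors did not keep a fixed ratio. Per kilobase, the level of *Pdgfra* was 2.29, 4.75 and 0.385 times that of *Pdgfrb* in Vmed replicates 1, 2 and 3, and 1.63 and 0.612 times in Vhigh replicates 2 and 3. By this measure *Pdgfrb* was the higher receptor in Vmed replicate 3 and Vhigh replicate 3. In CPM the order in Vhigh replicate 3 was the opposite, by a small margin. No ratio was formed for Vhigh replicate 1.

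The transcription factor genes varied between libraries of a fraction. *Prrx1* (chromosome 1, 163245119 to 163313710, minus strand), a homeobox gene of limb and craniofacial mesenchyme, had 152, 22.3 and 7.10 CPM in Vmed replicates 1, 2 and 3. It had 0, 18.0 and 2.99 CPM in Vhigh, where the 0 of replicate 1 allows up to 0.281 CPM. The fractions overlapped. The highest Vmed and the lowest Vhigh library formed a pair, and the levels in replicate 2 were alike. For *Prrx1* the log2 fold change was -3.32 (SE 1.67, edgeR adjusted p = 0.9998). It was -1.20 without Vmed replicate 1 and -5.49 without Vhigh replicate 2, the ends of the range with single libraries left out, and -2.47 once blocked by replicate.

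*Twist1* (chromosome 12, 33957671 to 33959829, plus strand) was the only one of the 10 genes with a fitted value higher in Vhigh. It had 22.1, 2.77 and 0 CPM in Vmed replicates 1, 2 and 3 and 27.1, 6.45 and 0 CPM in Vhigh. The 0 values allow up to 0.309 CPM in Vmed replicate 3 and 0.249 CPM in Vhigh replicate 3. In both fractions replicate 1 was highest, replicate 2 lower and replicate 3 at 0. The log2 fold change was 0.45 (SE 2.39, edgeR adjusted p = 0.9998) and its sign did not hold when single libraries were left out, with a range of -1.61 to 3.12.

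*Twist2* (chromosome 1, 91801461 to 91848028, plus strand) did not share this pattern. It had 1.60, 2.17 and 12.1 CPM in Vmed replicates 1, 2 and 3 and 8.35, 1.47 and 4.24 CPM in Vhigh. Its highest Vmed library, replicate 3, was the one with 0 counts of *Twist1*. The log2 fold change was -0.15 (SE 1.91, edgeR adjusted p = 0.9998), and its sign also turned when single libraries were left out. Whether reads of the antisense transcript Gm29100 are among these counts was not tested.

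*Cspg4* (chromosome 9, 56865033 to 56899870, plus strand), the NG2 gene of pericytes, was the lowest of the 10 per kilobase, with 0.343 ± 0.402 RPKM in Vmed and 0.234 ± 0.405 RPKM in Vhigh (SD, n = 3 each). In CPM it had 0, 2.89 and 9.37 in Vmed replicates 1, 2 and 3 and 0, 8.38 and 0 in Vhigh. The gene was at 0 in Vmed replicate 1 and in Vhigh replicates 1 and 3, and the log2 fold change of -0.75 had an SE of 2.77 (edgeR adjusted p = 0.9998). Its fitted direction was positive, at 0.80, without Vmed replicate 3.

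**Figure D3:**
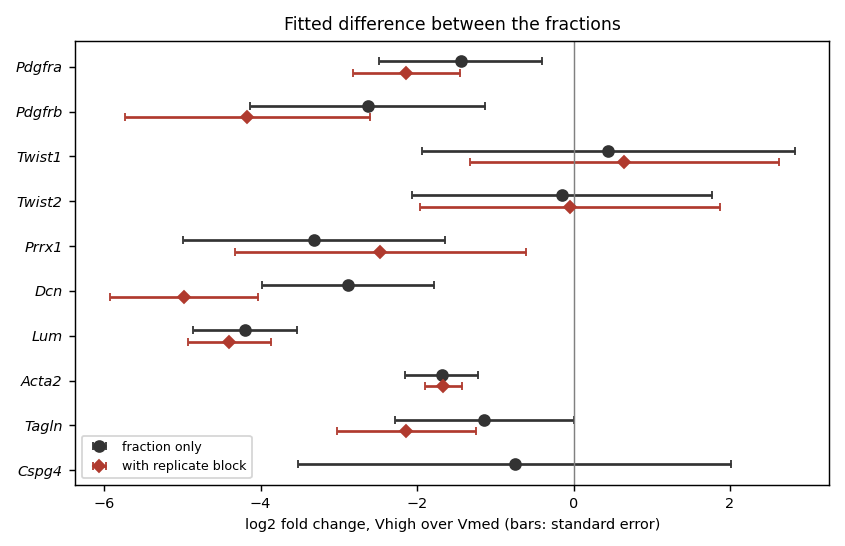
Points give the log2 fold change (x axis, Vhigh over Vmed) of each gene by the QL test of edgeR, unblocked (circles) or blocked by replicate (diamonds), and bars give the SE. *Lum*, *Dcn* and *Acta2* lie well below 0 in both fits, *Twist1* and *Twist2* lie near 0 with wide bars, and the block gave no standard error for *Cspg4*, for which it is not drawn.

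Per kilobase of exon, *Lum* (307 ± 209 RPKM), *Acta2* (177 ± 56.9), *Dcn* (53.2 ± 3.25) and *Tagln* (45.1 ± 27.8) had the highest mean levels of the 10 genes in Vmed (SD, n = 3 each). *Pdgfra* (10.3 ± 6.00), *Pdgfrb* (5.98 ± 3.06), *Prrx1* (5.46 ± 7.19), *Twist1* (5.09 ± 7.39) and *Twist2* (1.67 ± 1.87) followed. For neighbours in this order the ranges of mean ± SD overlapped, except between *Acta2* and *Dcn* and between *Tagln* and *Pdgfra*. In the same unit, *Kit* had a mean of 12.4 and *Pecam1* of 62.3 RPKM in Vmed. In this unit *Lum* and *Acta2* were above both genes of the sort in the means of this fraction. Without the division by length, *Acta2* and *Pecam1* had nearly the same Vmed mean, at 389 and 388 CPM. In Vhigh the order was led by *Acta2* (56.9 ± 18.8), *Tagln* (20.5 ± 18.0) and *Lum* (16.6 ± 11), against a mean of 47.3 RPKM for *Kit*.

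Related genes from lists written by hand gave 0 genes past the threshold of the QL test in each list. Of the transcription factors of mesenchyme other than those above, 14 of 19 were tested, and 13 had fitted values lower in Vhigh (median log2 fold change -2.08). *Tcf21*, a factor of visceral mesenchyme, had 9.16 to 145 CPM in Vmed and 0.188 to 3.68 CPM in Vhigh (log2 fold change -5.52, SE 1.42, edgeR unadjusted p = 0.0086, adjusted p = 0.9998). *Zeb1* and *Zeb2*, zinc finger factors that blood cells also express, overlapped between the fractions (log2 fold changes -0.27 and 0.31). Of the matrix and surface genes of fibroblasts, 16 of 18 were tested, with 11 fitted lower and 5 fitted higher in Vhigh (median -0.99). *Postn*, which encodes the matrix protein periostin, had 171 to 1042 CPM in Vmed and 77.2 to 111 CPM in Vhigh, and *Sparc*, a collagen-binding protein, 1068 to 2717 and 538 to 609.8 CPM. *Fstl1*, which encodes a secreted glycoprotein, overlapped, with 504 to 1375 and 236 to 828 CPM. Of the 5 fitted higher, *Lox* had 0 to 4.12 CPM in Vmed and 0.831 to 52.2 CPM in Vhigh (log2 fold change 3.83, SE 2.29, edgeR adjusted p = 0.9998). *Eln* had 0.801 to 8.85 and 6.65 to 25.2 CPM (log2 fold change 1.89, SE 1.77). For both genes the fractions overlapped.

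Other small leucine-rich proteoglycans were sparse, as 3 of 10 passed the filter. Of these, 2 were fitted lower in Vhigh and 1, *Omd*, higher (median -2.51, *Omd* 0.74 with SE 2.50). *Bgn* (biglycan) had 39.6, 278 and 144 CPM in Vmed replicates 1, 2 and 3 and 0, 19.4 and 59.2 CPM in Vhigh. *Fmod* did not pass the filter, with 0.686 to 26.2 CPM in Vmed and 2 counts in all in Vhigh, and *Ogn* had 1.03 to 20.7 and 0 to 3.96 CPM. *Chad*, which did not pass the filter either, went the other way, with 0 to 0.362 CPM in Vmed and 0 to 19.2 CPM in Vhigh. *Kera*, the other neighbour of *Lum* on chromosome 10, and *Podn* had 0 counts in all 6 libraries. Of the ligands of the PDGF receptors, all 4 were tested and 2 were lower in Vhigh (median -0.74). *Pdgfb* had 10.8 to 12.2 CPM in Vmed and 0.0938 to 37.0 CPM in Vhigh, *Pdgfc* 7.83 to 57.2 and 0 to 10.2 CPM, and *Pdgfd* 0.206 to 29.8 and 0 to 7.55 CPM. These fractions overlapped. Those of *Pdgfa*, named after its values were seen, did not, with 0.206 to 6.03 CPM in Vmed and 7.06 to 17.1 CPM in Vhigh (log2 fold change 2.30, SE 1.77, edgeR adjusted p = 0.9998).

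Of the contractile genes and regulators of smooth muscle, 15 of 16 were tested and 11 were lower in Vhigh (median -1.05). *Cald1* (caldesmon) had 286 to 368 CPM in Vmed and 96.5 to 166 CPM in Vhigh, *Tpm1* (tropomyosin) 397 to 1042 and 288 to 470.1 CPM, and *Mkl2*, a coactivator of serum response factor, 103 to 126 and 6.47 to 114 CPM. The fractions overlapped for *Tpm1* and *Mkl2* and not for *Cald1*. *Myh11*, the smooth muscle myosin that marks mature cells, stayed at 0 to 6.27 CPM in Vmed and 0 to 13.3 CPM in Vhigh. Of the pericyte list, 7 of 10 were tested and 4 were lower in Vhigh (median -0.27). *Angpt1*, which encodes a ligand of the receptor TIE2 and led the list by its mean over all 6 libraries through Vhigh alone, went the other way, with 2.41 to 11 CPM in Vmed and 142 to 311 CPM in Vhigh (log2 fold change 4.82, SE 0.68, edgeR unadjusted p = 0.00012, adjusted p = 0.66). *Mcam*, a surface adhesion molecule, and *Abcc9*, a potassium channel subunit, overlapped between the fractions.

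Basic helix-loop-helix partners of TWIST and the Id inhibitors were all tested, 9 of 9, and 7 were lower in Vhigh (median -0.90). *Id3* had 427 to 975 CPM in Vmed and 122 to 241 CPM in Vhigh, *Id2* 211 to 1330.1 and 48.9 to 171 CPM, and *Tcf4*, an E protein, 157 to 319 and 109.8 to 141 CPM. Of 5 other actin genes, 5 had fitted values lower in Vhigh (median -1.04). The cytoplasmic actin gene *Actb* had a log2 fold change of -0.17 (SE 0.59), against -1.69 for *Acta2*. *Actc1* was at -1.04 and *Actg1* at -0.66. *Acta1* (-3.65, SE 1.96) and *Actg2* (-2.44, SE 2.44) lay further below 0 than *Acta2*, with larger SE.

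**Figure D4:**
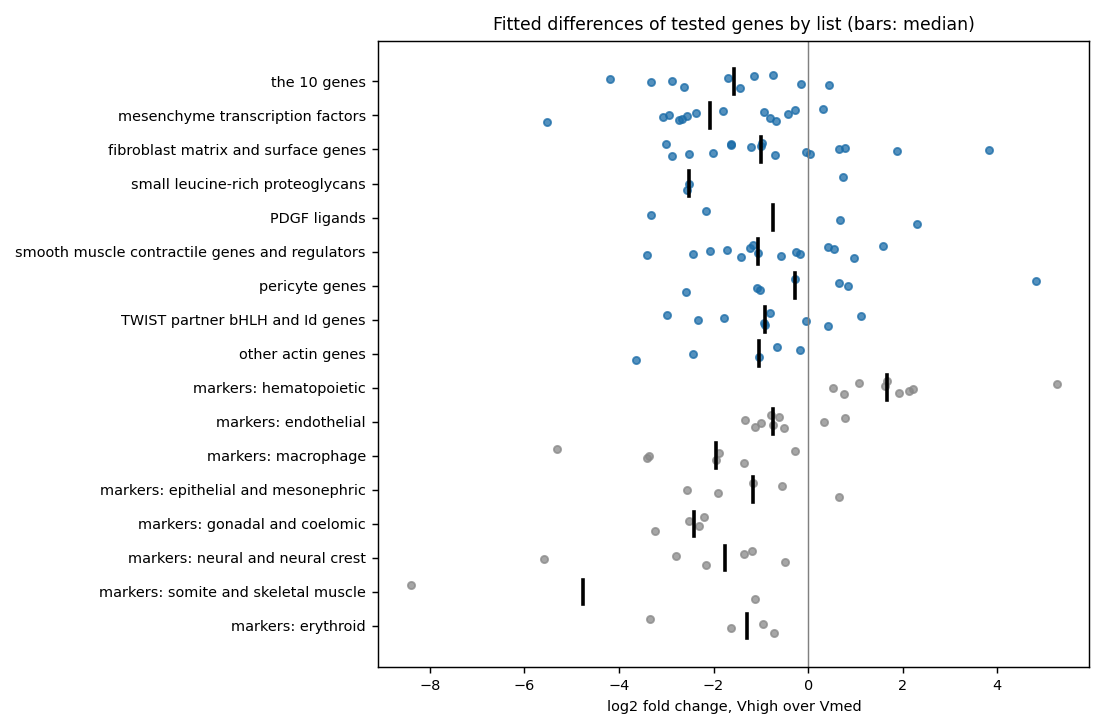
Each point is the log2 fold change (x axis, Vhigh over Vmed) of a tested gene, by list (y axis; blue for the 10 genes and related lists, grey for markers of cell types), and vertical bars are medians. The medians lie at -1.57 for the 10 genes, at -2.08 for the transcription factors of mesenchyme and at 1.68 for the hematopoietic markers.

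Markers of other cell types also had different levels in the fractions, and their part in the differences of the 10 genes was not tested. No marker passed the threshold of the QL test. Of the hematopoietic markers, 9 of 9 had fitted values higher in Vhigh, with a summed level of 226 to 553 CPM in Vmed and 760.4 to 1793 CPM in Vhigh. Of the endothelial markers, 7 of 9 were lower in Vhigh (1599.6 to 4783 and 1585 to 4458 CPM). All 7 macrophage markers with a row were lower (626 to 964 and 137 to 413 CPM). Among genes of other tissues of the region, 4 of 5 tested epithelial and mesonephric markers (145 to 269 and 83.9 to 138 CPM) and 4 of 4 tested gonadal and coelomic markers (27.0 to 149.5 and 0.332 to 18.7 CPM) were lower. So were 6 of 6 tested neural and neural crest markers (41.5 to 252 and 16.4 to 70.4 CPM), 2 of 2 somite and skeletal muscle markers (4.81 to 12.2 and 0 to 4.42 CPM) and 4 of 4 erythroid markers (174 to 596 and 91.4 to 215 CPM). *Myod1* and *Hba-a1* had 0 counts in all libraries. Alignments that were not unique were not counted for any gene, so a count of 0 does not show that the RNA was absent. The summed level of the 10 genes, at 1179 to 2465 CPM, was above that of the macrophage, neural, gonadal and epithelial markers in each Vmed library. The endothelial markers, at 1599.6, 4758 and 4783 CPM in Vmed replicates 1, 2 and 3, were above it in replicates 2 and 3. Sums over lists of different genes do not rank the cell types present.

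Outside the 10 genes and the related lists, the tested genes whose log2 CPM over the 6 libraries followed the mean log2 CPM of the 10 genes most closely were *Col6a3* and *Yif1a* (Pearson r of 0.99 each) and *Olfm1*, *Myrf* and *Igfbp5* (0.98 each). Each r rests on 6 libraries that also differ by fraction, and these are the highest values among all such genes, so they describe a likeness and were not tested. *Col6a3*, a collagen VI chain, had 29.2, 24.2 and 23.2 CPM in Vmed replicates 1, 2 and 3 and 2.91, 6.45 and 0 CPM in Vhigh. *Yif1a* differed less between the fractions, with 102, 109 and 89.1 CPM in Vmed and 70.3, 84.8 and 53.9 CPM in Vhigh. *Igfbp5*, a secreted binding protein of insulin-like growth factors, had 125, 149 and 104 CPM in Vmed and 38.5, 91.0 and 19.4 CPM in Vhigh.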

How the data were processed

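The authors prepared cDNA of sorted cells by the SMARTer protocol and sequenced it with single 50-base reads. TopHat with Bowtie (1.1.2 in the submitters' processing notes) placed the reads on GRCm38/mm10, and HTSeq counted them per gene. The deposited values are raw counts per gene symbol, 1 table per library, and the annotation is not given in the sources used here. Alignments not assigned to a gene were 55.0% to 77.2% of the total and were left out of library sizes and tests.

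CPM used each library's gene total. RPKM used exon-union lengths from GENCODE M21 (22750 symbols matched directly, 935 through older symbols, 377 unmatched). Testing used R 4.3.3 and edgeR 4.0.16 (filterByExpr, TMM, then glmQLFit and glmQLFTest on a design holding fraction alone), adjusted after Benjamini-Hochberg over 12688 genes. Log2 CPM used a prior count of 2. The log2 CPM of single genes was set against all 20 arrangements of the libraries (exact permutation, two-sided). These arrangements do not keep the pairs. Alternatives were RLE and library-size normalization, no filter, edgeR's likelihood ratio test, DESeq2 1.42.0, a replicate block, counts thinned to the lowest total, and each library left out. The summed level with TMM-adjusted library sizes was added after seeing the data. The common dispersion of the edgeR fit corresponded to a coefficient of variation of 1.16 between libraries of a fraction. The code was also run on simulated data, and no result given here rests on that run.

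The replicate numbers come from the labels. Deviations from the fraction mean (log2 CPM, across genes) had r of 0.21, 0.21 and 0.39 between libraries numbered 1, 2 and 3. Between different numbers r was -0.29 to -0.01. The deviations of a fraction cancel out in each gene, so the negative r follow in part from the positive ones. From the positive r, the numbers were taken to pair the libraries.

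The 10 genes and the lists were chosen with earlier results of these data known. Named in the text were the 10 genes, the 3 genes of each related list with the highest mean CPM, *Gata2*, *Kit* and *Pecam1*, and the 5 genes most like the mean of the 10. *Pdgfa*, *Lox*, *Eln*, *Omd*, *Chad*, *Myh11*, *Acta1*, *Actg2*, *Kera*, *Podn*, *Myod1* and *Hba-a1* were named after their values were seen.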

Additional observations from a re-analysis of the deposited data

How the results depend on the processing

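The number of genes past an adjusted p of 0.05 was 0 in the quasi-likelihood test, 0 of them among the 10 genes, and 259 of 12688 genes had an unadjusted p under 0.05. Both numbers stayed at 0 with RLE normalization, library-size normalization, thinning and the replicate block. Without a filter on low counts 37 genes passed, 2 of them among the 10 (*Lum* and *Dcn*). With edgeR's likelihood ratio test 21 passed, and with the DESeq2 Wald test 51, each with 1 of the 10 (*Lum*). With the replicate block in the likelihood ratio test 74 passed, 3 of them among the 10. With single libraries left out the number was 0 to 1, the 1 being *Dcn* without Vhigh replicate 1. The study, with edgeR at a false discovery rate of 0.05, reported more genes as different than any of these settings, most of them lower in Vhigh. The cause of these differences was not tested.

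The number of the 10 genes with fitted values lower in Vhigh was 9 in all alternatives with 6 libraries and 8 to 10 with single libraries left out. The log2 ratio of the mean summed CPM was -2.47, between -2.49 and -2.46 under other scalings and thinning, and -2.87 to -2.08 with single libraries left out. Signs turned in 3 genes. *Twist1* was at -0.01 without Vmed replicate 2, -0.14 without Vmed replicate 3 and -1.61 without Vhigh replicate 1, in a range of -1.61 to 3.12 over the libraries left out. *Twist2* was at 1.37 without Vmed replicate 3, 0.35 without Vhigh replicate 2 and 0.02 without Vhigh replicate 3, in a range of -0.94 to 1.37. *Cspg4* was at 0.80 without Vmed replicate 3, in a range of -8.28 to 0.80. In the quasi-likelihood test, the replicate block changed no call of the 10 genes. Counts of 0 in single libraries limit *Cspg4*, *Twist1* and *Prrx1*, and a count of 2 in Vhigh replicate 1 limits *Pdgfrb*.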
